A study of Mus musculus with 15 samples.

Results

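Complex I (NADH:ubiquinone oxidoreductase) was examined in mouse liver through its nuclear genes, taken as every protein-coding gene whose symbol starts with Nduf, with the Ndufaf assembly factors included and the pseudogenes left out. The rule found 46 genes among 21884 protein-coding genes and 55450 gene identifiers. They comprised 7 core subunits, 29 accessory subunits, 8 assembly factors and 2 further genes, Ndufa4, whose product is now counted with complex IV, and its paralog Ndufa4l2. Another 5 genes with Nduf names were left out because the annotation lists 4 as processed pseudogenes (Ndufa11b, Ndufb4c, Ndufs6b and Ndufab1-ps) and Ndufb1-ps as a noncoding transcript. The core subunits encoded by mitochondrial DNA were not analysed here, since the counts cover non-mitochondrial genes.

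Liver RNA came from 15 female C57BL/6 mice, with 5 in each of 3 groups and 1 library per mouse. Adult mice were 6 months old and Old mice 22 months old, and both received the corn oil vehicle by daily gavage. PDX mice were 22 months old as well and received protectin DX (PDX), a lipid mediator derived from docosahexaenoic acid, in corn oil at 30 ng per g of body weight. These are the ages given by the labels, which the study's methods place at the start, and the livers were taken at its end, from older mice. The gavage lasted 9 weeks per the treatment protocol and 8 weeks per the text of the series, and all mice were of the same strain and sex. The library totals lay between 22424383 and 36070835 read pairs assigned to genes. Levels are given as CPM, the count scaled to a common library size, after TMM scaling. Differences are log2 fold changes from edgeR's quasi-likelihood test on all 15 mice. Their standard error (SE) was derived as the absolute log2 fold change divided by the square root of the test's F statistic.

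Complex I is the entry point of the respiratory chain for electrons from NADH. Its matrix arm carries flavin and iron-sulfur clusters that pass the electrons to ubiquinone, and its membrane arm pumps protons across the inner mitochondrial membrane. Core subunits hold the catalytic parts, accessory subunits surround and stabilise them, and assembly factors help to build the complex but are absent from the finished enzyme. Hepatocytes are rich in mitochondria and supply most of the RNA of whole liver. In bulk tissue, fewer cells of a type and less RNA per cell cannot be told apart.

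The regions upstream of 5 members are shown first, because they carry promoter letters searched for here or belong to members that passed the test between Old and Adult. Ndufab1 and Ndufs5 were the members that passed the test, Ndufaf4 and Ndufa6 share the letters of the NRF1 motif, and Ndufaf1 carries those of the ETS motif. The log2 fold changes between Old and Adult were 0.24 for Ndufaf4 and -0.39 for Ndufa6, and neither was called. For Ndufaf4 the value was -0.17 without Old 5. Each line gives 120 bases that end before the start of the gene in both RefSeq and GENCODE, written 5′ to 3′ on the strand of the gene, from the RefSeq promoter table of build GRCm38.p6. Capitals mark the motif letters.
Ndufab1 (chr7:122101887-122102006, minus strand): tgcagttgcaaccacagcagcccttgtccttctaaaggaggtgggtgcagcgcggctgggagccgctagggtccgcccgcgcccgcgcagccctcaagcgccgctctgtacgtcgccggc
Ndufs5 (chr4:123718203-123718322, minus strand): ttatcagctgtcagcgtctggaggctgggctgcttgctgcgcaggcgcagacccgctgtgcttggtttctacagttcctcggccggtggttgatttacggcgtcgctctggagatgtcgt
Ndufaf4 (chr4:24897963-24898082, plus strand): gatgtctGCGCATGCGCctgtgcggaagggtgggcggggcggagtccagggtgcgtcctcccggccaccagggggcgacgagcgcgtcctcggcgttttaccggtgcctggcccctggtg
Ndufa6 (chr15:82354323-82354442, minus strand): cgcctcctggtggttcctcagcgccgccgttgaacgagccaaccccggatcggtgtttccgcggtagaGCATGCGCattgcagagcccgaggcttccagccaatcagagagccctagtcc
Ndufaf1 (chr2:119662835-119662954, minus strand): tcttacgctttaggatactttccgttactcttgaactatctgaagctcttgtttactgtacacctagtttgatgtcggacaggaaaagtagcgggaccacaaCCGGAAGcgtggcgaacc

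Motif letters were searched on both strands of the window from 250 bases before to 50 bases after the RefSeq start, which was given for 40 of the 46 members. The letters GCGCATGC of NRF1, a factor known to act on respiratory chain genes, lay in 5 members (Ndufa6, Ndufa8, Ndufa11, Ndufaf4 and Ndufaf5), that is 12.5% against 3.05% of 27025 genes with a window. In Ndufa11, Ndufaf4 and Ndufaf5 the matches on both strands overlap. The ETS letters CCGGAAG lay in 6 members (Ndufaf1, Ndufaf8, Ndufb6, Ndufb7, Ndufs3 and Ndufs8), 15% against 9.93% of all genes. The YY1 letters AAGATGGCG lay in 6 members (Ndufa9, Ndufaf8, Ndufc1, Ndufs4, Ndufs6 and Ndufs7), 15% against 1.64%, in each case after the start. The ESRRA letters TCAAGGTCA lay in 0 of the 40 members and in 0.466% of all genes. The 27025 genes with a window outnumber the 21884 protein-coding genes, so this background is not of protein-coding genes alone, unlike the members. These matches describe letters in a window and were not tested.

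All 46 members passed the filter on low counts. Per kb of the principal transcript, core subunits had a median level of 68.5 CPM in the Adult group, accessory subunits 89.2 CPM and assembly factors 11.6 CPM. The highest levels per kb were those of Ndufa4 (359 ± 18.4 CPM per kb, SD, n = 5), Ndufb9 (227 ± 11.7) and Ndufa6 (211 ± 15.3), and the intervals of mean ± SD of Ndufb9 and Ndufa6 overlapped. Ndufa4l2, known as a hypoxia-induced paralog, had the lowest level (1.41 ± 0.323 CPM per kb), followed by Ndufaf5 (4.91 ± 0.820) and Ndufab1 (6.33 ± 0.317), and the last value rests on a long principal transcript of 3479 bases. Counts were restricted to uniquely aligned pairs, and 10 members share over 10% of their 50-base transcript pieces with an annotated transcript of another gene. These include Ndufaf2 (64.1%), Ndufb6 (31.6%, with Smim27), Ndufa13 (28.5%, with Tssk6 and Gm12389), Ndufs5 (21.7%, with BC002163), Ndufb4 (18.3%, with Ndufb4c among others) and Ndufb9 (15.6%, with Gm49356). The pieces were matched on either strand, whereas pairs were counted on the same strand. The share does not tell copies elsewhere from genes that overlap at the same place. The levels of these genes may therefore be uncertain, which was not tested. For Ndufab1 the share was 9.27%, with Gm4459 and Ndufab1-ps among the genes.

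The Old mice did not form a uniform group. For each mouse, the difference of each member's log2 CPM from the Adult mean was taken, and the median over the 46 members was 0.01 in Old 1, -0.81 in Old 2, -0.28 in Old 3, -0.15 in Old 4 and -0.69 in Old 5. With TMM scaling, Old 2 and Old 5 therefore stood apart from the other 3, while Old 1 lay at the Adult level. The PDX mice lay close together, with medians of -0.16, -0.27, -0.27, -0.20 and -0.13 in PDX 1 to 5, and the Adult mice lay between -0.07 and 0.10. Old 2 was the lowest of all 15 mice for 26 members and Old 5 for 18, against 12.4% and 28.4% of all genes tested. With libraries scaled by their totals in place of TMM, the median of Old 2 was -0.37, close to that of PDX 2 (-0.35) on the same scale, and the median of all genes in Old 2 was 0.44. On that scale the median of Old 1 was -0.14, below all Adult mice (-0.06 to 0.06), and the median of all genes in Old 1 was -0.16. A change of scaling shifts all genes of a mouse by about the same amount.

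**Figure D1:**
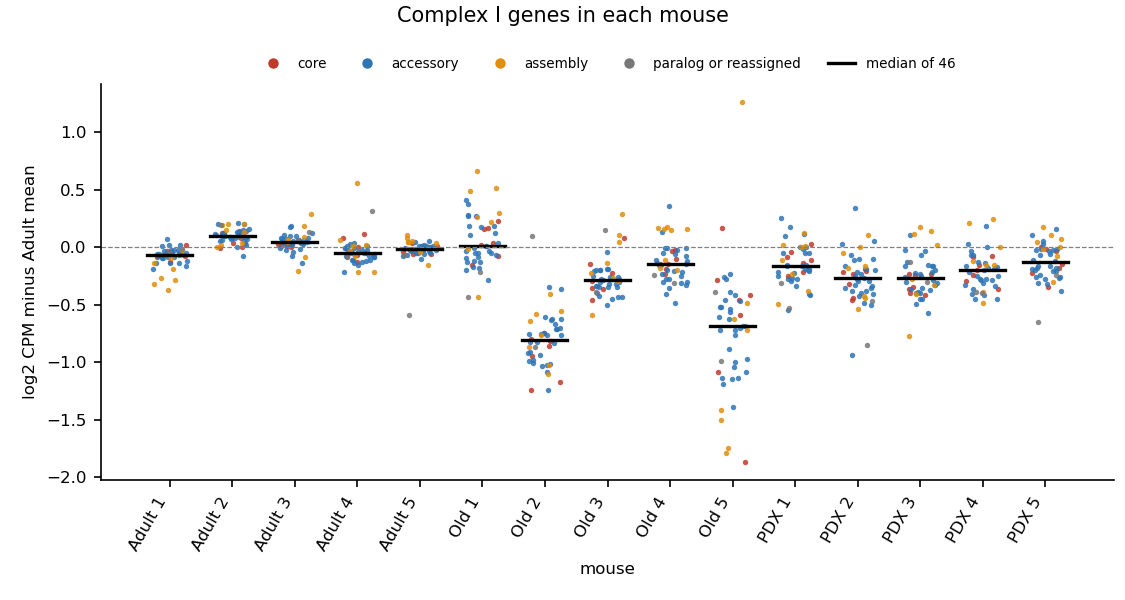
Difference of log2 CPM from the Adult mean (vertical axis) for the 46 complex I genes in each of 15 mice (horizontal axis), coloured by class, with a black bar at the median of the 46. The bars of Old 2 (-0.81) and Old 5 (-0.69) lie below those of all other mice, and the highest point of Old 5 is Ndufaf4 (1.26).

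Old 2 and Old 5 differed from the Adult group in different ways. In Old 2 the members moved together, with an interquartile range of -0.97 to -0.68, and 45 of 46 members lay below every Adult mouse, the exception being Ndufa4l2 at 0.09. In Old 5 the interquartile range was wider, -1.07 to -0.46, and 44 of 46 members lay below every Adult mouse. The lowest members of Old 5 were the core subunit Ndufs8 (-1.87) and the assembly factors Ndufaf5 (-1.79), Ndufaf6 (-1.75), Ndufaf1 (-1.50) and Ndufaf3 (-1.41). Above every Adult mouse lay Ndufaf4 (1.26), which codes for a factor that acts early in the assembly of the matrix arm. The median of the 8 assembly factors was -1.07 in Old 5 and that of the 7 core subunits -0.46, whereas in Old 2 they were -0.70 and -0.86. In the other Old mice, 12 members of Old 1, 38 of Old 3 and 25 of Old 4 lay below every Adult mouse, and 16 members of Old 1 lay above. Among all genes, between 26.9% and 39.4% lay below every Adult mouse in an Old mouse, and 30.3% lay above in Old 1.

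The liver label was checked against 8 hepatocyte markers, such as Alb and Cps1, all of which passed the filter. Their summed level lay between 132600 and 147100 CPM in the Adult group and between 128000 and 176600 CPM in the PDX group. Among Old mice it was 217600 CPM in Old 1, 81830 in Old 2, 137300 in Old 3, 180900 in Old 4 and 90600 in Old 5. Alb alone made up 78.8% to 80.3% of this sum in the Adult mice and 38.3% in Old 5. Without Alb, the sum of the other markers was lowest in Old 2 (16190 CPM) and highest in Old 5 (55880 CPM) of all 15 mice, with 26790 to 31170 CPM in the Adult group. Single markers differed in direction, with mean log2 fold changes between Old and Adult from -1.04 (Ttr) to 1.09 (Fgb), and none passed the test (edgeR adjusted p = 0.0782 and 0.0932 for these). Markers of other cell types also differed, and not in Old 2 and Old 5 alone. Old 2 had the highest sums of all mice for the 6 Kupffer cell markers (2633 CPM, Adult 382 to 588), the 8 neutrophil markers (235 CPM, Adult 2.38 to 5.70), the 4 B cell markers (97.4 CPM, Adult 5.04 to 8.53), the 4 T cell markers (40.1 CPM, Adult 2.04 to 4.15) and the 4 erythroid markers (365 CPM, Adult 57.9 to 84.3). Old 5 had the highest sums for the 5 stellate cell markers (603 CPM, Adult 288 to 317) and the 4 cholangiocyte markers (39.4 CPM, Adult 5.93 to 10.3). It had the lowest sums for the endothelial (118 CPM, Adult 248 to 269), Kupffer cell (247 CPM), T cell (0.938 CPM) and erythroid markers (27.85 CPM). The endothelial list holds 5 markers, and its sums lay below the Adult range in all Old mice (118 to 239.5 CPM). The neutrophil sums of Old 1, Old 3, Old 4 and Old 5 (10.1, 14.3, 10.1 and 40.9 CPM) also lay above the Adult range. The same held for the B cell sums of Old 1, Old 3 and Old 5 (13.5, 80.6 and 9.05 CPM) but not of Old 4 (8.51 CPM). The Kupffer cell sum of Old 3 (806 CPM) lay above the Adult range, and those of Old 1 and Old 4 inside it. The T cell sums of Old 1, Old 3 and Old 4 lay inside the Adult range. In the PDX group Kupffer cell sums ran from 661 to 1414 CPM and neutrophil sums from 14.4 to 73.0 CPM. B cell sums ran from 14.6 to 53.3 CPM and T cell sums from 4.97 to 17.9 CPM, and all of these lay above the Adult ranges. The endothelial, stellate cell, cholangiocyte and erythroid sums of the PDX group overlapped the Adult ranges. The part of these cell types in the results on complex I was not tested.

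**Figure D2:**
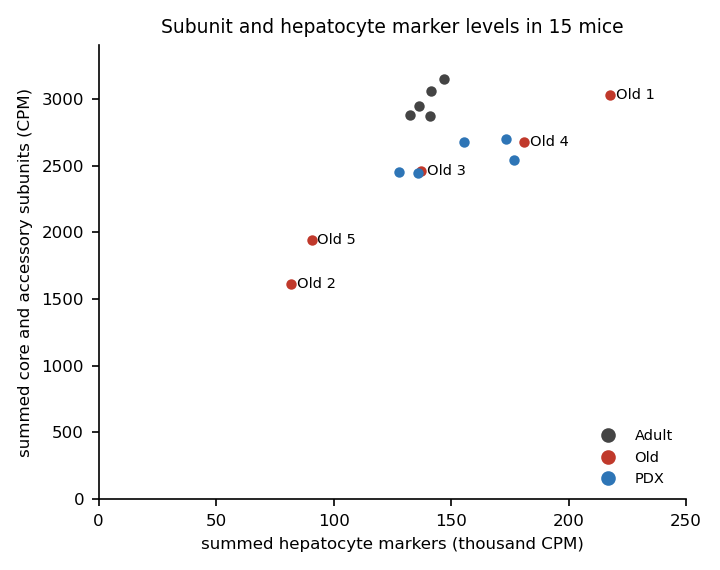
Summed CPM of the 36 core and accessory subunits (vertical axis) against the summed CPM of 8 hepatocyte markers (horizontal axis, in kilo-CPM), 1 point per mouse. Old 2 and Old 5 lie lowest on both axes, the horizontal one being mostly Alb, with 1614 and 1944 CPM of subunits. PDX mice (2441 to 2698 CPM) lie below all Adult mice (2874 to 3151 CPM) on the vertical axis. Their marker sums run from 128000 to 176600 CPM, and PDX 3 alone lies inside the Adult range of 132600 to 147100 CPM.

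Summed over the 36 subunits, the Adult mice had 2874, 3151, 3060, 2882 and 2944 CPM, the Old mice 3028, 1614, 2457, 2676 and 1944 CPM, and the PDX mice 2678, 2452, 2441, 2541 and 2698 CPM. All PDX mice lay below all Adult mice, while the Old group spanned both. The means were 2982 ± 120 CPM in Adult, 2344 ± 566 in Old and 2562 ± 122 in PDX (SD, n = 5 each). The median coefficient of variation of a member was 6.33% among Adult mice, 27.1% among Old mice and 7.02% among PDX mice.

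The comparison of Old with Adult asked how age relates to these genes under vehicle. Mean levels were lower in Old for 43 of 46 members, against 43.2% of the 15808 genes tested, and the median log2 fold change was -0.35, against 0.07 over all genes. At an adjusted p under 0.05 (edgeR, Benjamini-Hochberg over all genes), 2 members fell, Ndufab1 and Ndufs5, where 2.07% of all genes were called lower, and 0 rose, where 4.71% were called higher. DESeq2 called 8 members lower, against 4.02% of all genes. At an unadjusted p under 0.05, 22 members were lower and 0 higher, against 9.81% of all genes lower. In 10 members every Old mouse lay below every Adult mouse, against 4.48% of all genes, and in 0 members every Old mouse lay above, against 3.65%. Without Old 2 and Old 5, edgeR called 0 members, against 2.26% of all genes lower and 4.85% higher, 36 members had a lower mean and the median was -0.14. In 10 members, Old 1, Old 3 and Old 4 all lay below every Adult mouse, against 8.29% of all genes.

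**Figure D3:**
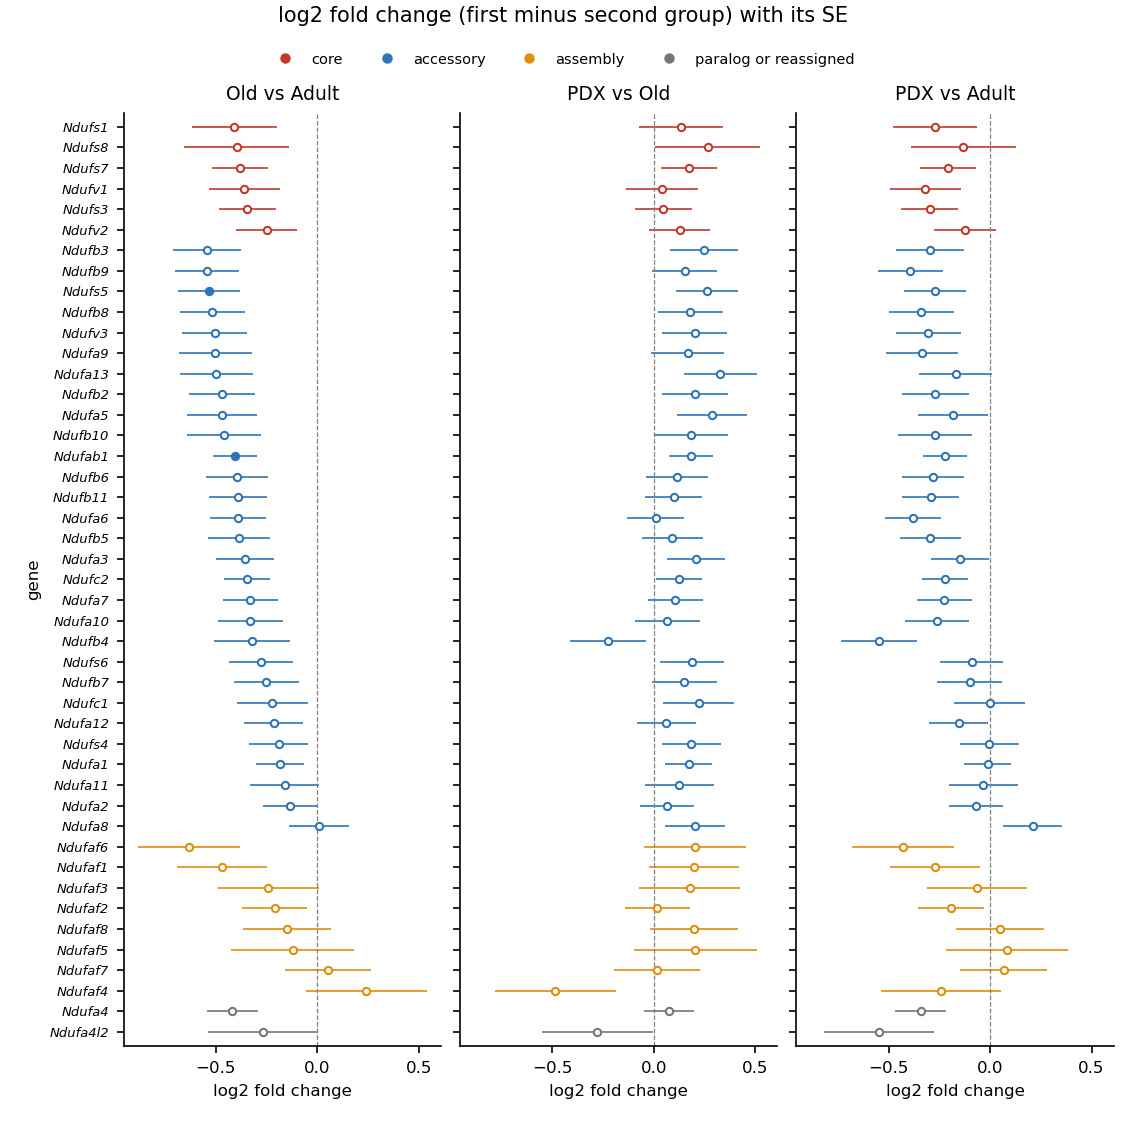
Log2 fold change (horizontal axis, first group minus second) with its SE (bars) for 45 members (rows, grouped by class and ordered by the Old versus Adult value) in the 3 comparisons. Filled points mark an adjusted p under 0.05, which only Ndufab1 (-0.41) and Ndufs5 (-0.53) reached between Old and Adult in this fit of all 15 mice.

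Ndufab1 codes for the mitochondrial acyl carrier protein, which sits in both arms of complex I and also serves fatty acid and lipoic acid synthesis. The gene lies at chr7:122085403-122101886 on the minus strand (GRCm38). Its levels were 20.9, 23.5, 21.9, 22.6 and 21.1 CPM in the Adult mice, 18.1, 14.2, 18.1, 19.0 and 13.6 CPM in the Old mice and 18.9, 17.5, 18.0, 19.7 and 20.3 CPM in the PDX mice. Every Old mouse and every PDX mouse lay below every Adult mouse. Between Old and Adult the log2 fold change was -0.41 (SE 0.11, adjusted p = 0.0405 by edgeR), and the mean level fell by 24.5%. Over 25 alternative settings the adjusted p ranged from 0.0080 to 0.156 and passed 0.05 in 7, and without Old 2 and Old 5 the log2 fold change was -0.25 (edgeR adjusted p = 0.0827).

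Ndufs5, an accessory subunit on the intermembrane side of the complex, lies at chr4:123712710-123718202 on the minus strand (GRCm38). It had 6.80, 8.00, 8.48, 6.95 and 7.43 CPM in the Adult mice, 6.54, 4.42, 5.28, 5.98 and 3.79 CPM in the Old mice and 6.19, 6.10, 6.03, 6.18 and 6.71 CPM in the PDX mice. Again no Old or PDX mouse reached the lowest Adult mouse, but the highest mouse of either group came close to it. The log2 fold change between Old and Adult was -0.53 (SE 0.15, adjusted p = 0.0488 by edgeR). The adjusted p ranged from 0.0096 to 0.166 over the 25 alternatives and passed in 5. Each call was lost when any single Adult or PDX mouse, or Old 2, was left out.

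The 7 core subunits all had a lower mean in Old than in Adult, against 43.2% of all genes. None passed the test, against 2.07% of all genes called lower and 4.71% called higher. In each of the 7 the groups overlapped, whereas 4.48% of all genes lay lower in Old without overlap and 3.65% higher. Ndufv1 codes for the flavoprotein that takes electrons from NADH and had 196.5, 200.9, 206.4, 199.3 and 199.0 CPM in the Adult mice, 205, 84.9, 157, 170 and 164 CPM in the Old mice and 173, 146, 152, 156 and 177 CPM in the PDX mice. Old 1 lay inside the Adult range, and all other Old mice and all PDX mice lay below it. The log2 fold change was -0.36 between Old and Adult (SE 0.18, edgeR adjusted p = 0.197). Ndufs1, the largest iron-sulfur subunit, had 141, 159, 157, 168 and 151 CPM in the Adult mice, 139, 68.6, 163, 140 and 73.1 CPM in the Old mice and 141, 124, 120, 135 and 122 CPM in the PDX mice. Old 3 lay within the Adult range here, and the log2 fold change was -0.41 (SE 0.21, edgeR adjusted p = 0.214).

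Ndufs8, an iron-sulfur subunit near the quinone site, had the widest spread of the 7 core subunits in the Old group, with a coefficient of variation of 44.6%. Its levels were 91.5, 46.8, 67.2, 70.8 and 21.4 CPM in the Old mice, 74.7, 86.4, 79.1, 74.0 and 77.9 CPM in the Adult mice and 73.9, 66.6, 66.4, 74.5 and 76.6 CPM in the PDX mice. Old 1 lay above every Adult mouse and Old 5 lay far below every other mouse. Accordingly the log2 fold change of -0.40 had a large error (SE 0.26, edgeR adjusted p = 0.335), and without Old 2 and Old 5 it was -0.02. Ndufs7, which holds the last iron-sulfur cluster before ubiquinone, had 63.7, 73.6, 68.9, 61.5 and 69.1 CPM in the Adult mice, 63.7, 38.7, 49.0, 62.5 and 44.8 CPM in the Old mice and 62.4, 57.9, 50.4, 54.9 and 66.5 CPM in the PDX mice. Old 1 and Old 4 lay within the Adult range, and the other Old mice below it. The log2 fold changes were -0.38 for Ndufs7, -0.35 for Ndufs3 and -0.25 for Ndufv2. Ndufs3 and Ndufs7 were the core subunits with an unadjusted p under 0.05 (edgeR adjusted p = 0.124 and 0.0928), against 9.81% of all genes lower.

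**Figure D4:**
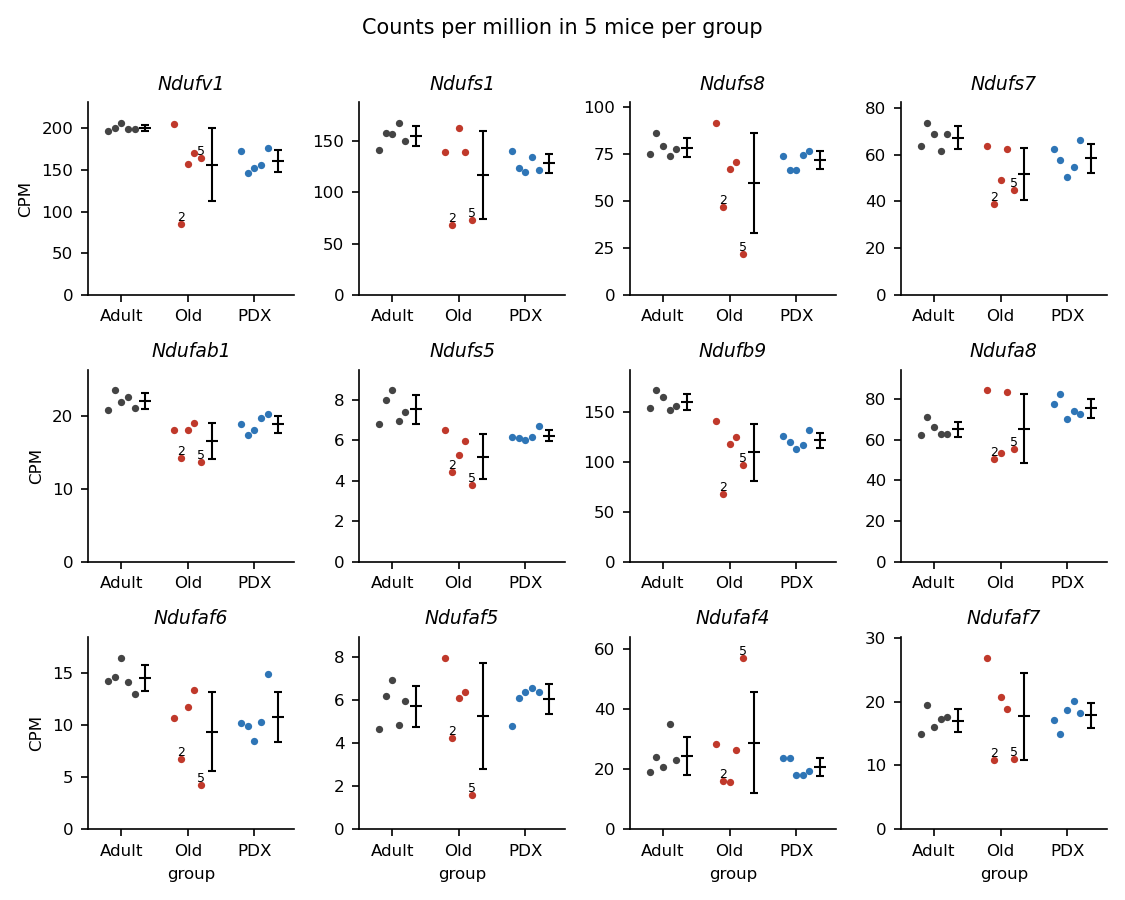
CPM (vertical axes, from 0) of 12 members in the 5 mice of each group (points), with the mean and SD beside them. The numbers 2 and 5 mark Old 2 and Old 5, which lie lowest of the Old group in Ndufab1 and Ndufs5, while in Ndufaf4 Old 5 is the highest mouse (57.2 CPM).

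Among the 29 accessory subunits, 28 had a lower mean in Old than in Adult, against 43.2% of all genes. Of these, 18 were lower at an unadjusted p under 0.05 (edgeR), against 9.81% of all genes. The medians of the log2 fold changes were -0.33 for the 9 accessory subunits of the matrix arm, -0.33 for the 9 of the proximal membrane arm and -0.43 for the 10 of the distal membrane arm. In the distal arm, Ndufb9 and Ndufb3 had the lowest values. Ndufb9, a small subunit that binds an acyl carrier protein, had 154, 172, 165, 152 and 156 CPM in the Adult mice, 141, 67.4, 118, 125 and 96.7 CPM in the Old mice and 126, 120, 113, 117 and 132 CPM in the PDX mice, with no overlap of either group with Adult. Its log2 fold change between Old and Adult was -0.54 (SE 0.16, edgeR adjusted p = 0.0522). Ndufb3 had the same fold change on this scale (-0.54, SE 0.17, edgeR adjusted p = 0.0609), but Old 1, at 49.8 CPM, lay within its Adult range. The members without overlap besides Ndufab1, Ndufs5 and Ndufb9 were Ndufb5, Ndufb8 and Ndufb11 of the distal arm, Ndufa6 and Ndufv3 of the matrix arm, Ndufa13 of the proximal arm and Ndufa4.

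Ndufa8, a subunit of the intermembrane side, was the accessory subunit whose mean was not lower in Old. It had 62.4, 71.1, 66.3, 62.9 and 62.6 CPM in the Adult mice, 84.1, 50.7, 53.5, 83.5 and 55.2 CPM in the Old mice and 77.6, 82.3, 69.9, 74.0 and 72.4 CPM in the PDX mice. Old mice thus lay on both sides of the Adult range, and PDX mice mostly above it. The log2 fold change was 0.01 between Old and Adult (SE 0.15, edgeR adjusted p = 0.979) and 0.21 between PDX and Adult (SE 0.15, edgeR adjusted p = 0.441).

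The assembly factors held both the lowest and the highest fold change of the 46 members. Their median log2 fold change between Old and Adult was -0.18, with 6 of 8 lower, against 43.2% of all genes. They ran from -0.63 (Ndufaf6) to 0.24 (Ndufaf4). Ndufaf6, needed early in assembly, had 14.2, 14.6, 16.5, 14.1 and 13.0 CPM in the Adult mice, 10.7, 6.70, 11.8, 13.4 and 4.26 CPM in the Old mice and 10.2, 9.92, 8.45, 10.3 and 14.9 CPM in the PDX mice. Old 4 and PDX 5 reached the Adult range and the others did not, and the test between Old and Adult was not passed (SE 0.25, edgeR adjusted p = 0.119). Ndufaf4 had 19.1, 23.9, 20.6, 35.1 and 23.1 CPM in the Adult mice, 28.5, 16.2, 15.8, 26.4 and 57.2 CPM in the Old mice and 23.8, 23.8, 17.9, 18.1 and 19.3 CPM in the PDX mice. Its positive mean difference between Old and Adult (SE 0.30, edgeR adjusted p = 0.631) turned negative without Old 5 alone (-0.17, SE 0.21, edgeR adjusted p = 0.627), was between 0.27 and 0.40 without any other single Old mouse, and was -0.04 without both Old 2 and Old 5. Ndufaf5, a hydroxylase that acts on Ndufs7, ranged from 1.59 CPM in Old 5 to 7.99 CPM in Old 1 around an Adult range of 4.64 to 6.93 CPM, with a log2 fold change of -0.12 (SE 0.30, edgeR adjusted p = 0.829). Ndufaf7, a protein arginine methyltransferase, had a log2 fold change of 0.05 with all Old mice (edgeR adjusted p = 0.899) and of 0.39 without Old 2 and Old 5 (edgeR adjusted p = 0.084).

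The comparison of PDX with Old asked what the treatment changed at the same age. At an adjusted p under 0.05, and also at the wider threshold of 0.25 used by the study for this comparison, 0 members were called by edgeR, as were 0 of all genes (a background of 0%), and DESeq2 also called 0 members at 0.05. At an unadjusted p under 0.05, 0 members were higher, against 1.04% of all genes, and in 0 members every PDX mouse lay above every Old mouse, against 0.145%. Mean levels were higher in PDX for 42 of 46 members, with a median log2 fold change of 0.16 against -0.07 over all genes. The highest value was that of Ndufa13 (0.33, SE 0.18, edgeR adjusted p = 0.793), a subunit also known as GRIM-19 that shares transcript sequence with other genes, and the lowest that of Ndufaf4 (-0.48, SE 0.30, edgeR adjusted p = 0.793). Ndufa13 had 111.6, 109.5, 111.4, 114.6 and 108.5 CPM in the PDX mice and 117.5, 76.7, 93.3, 107.4 and 47.6 CPM in the Old mice, so that Old 1 lay above all PDX mice. Lower means in PDX were also seen in Ndufb4 (-0.22) and Ndufa4l2 (-0.28), neither of which was called. These differences use the same Old mice as the comparison of Old with Adult.

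The direction between PDX and Old depended on Old 2 and Old 5. Without both mice the median log2 fold change was -0.09, 39 of 46 members had a lower mean in PDX, and 0 were called. Under this setting Ndufb4 had the lowest value (-0.43, SE 0.16, edgeR adjusted p = 0.425), and Ndufaf7 had -0.31 (edgeR adjusted p = 0.503). Leaving out Old 1 instead gave 11 members that were higher in PDX at an unadjusted p under 0.05, against 2.31% of all genes, and 13 members that were lower in Old than in Adult at an adjusted p under 0.05, against 2.21%.

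**Figure D5:**
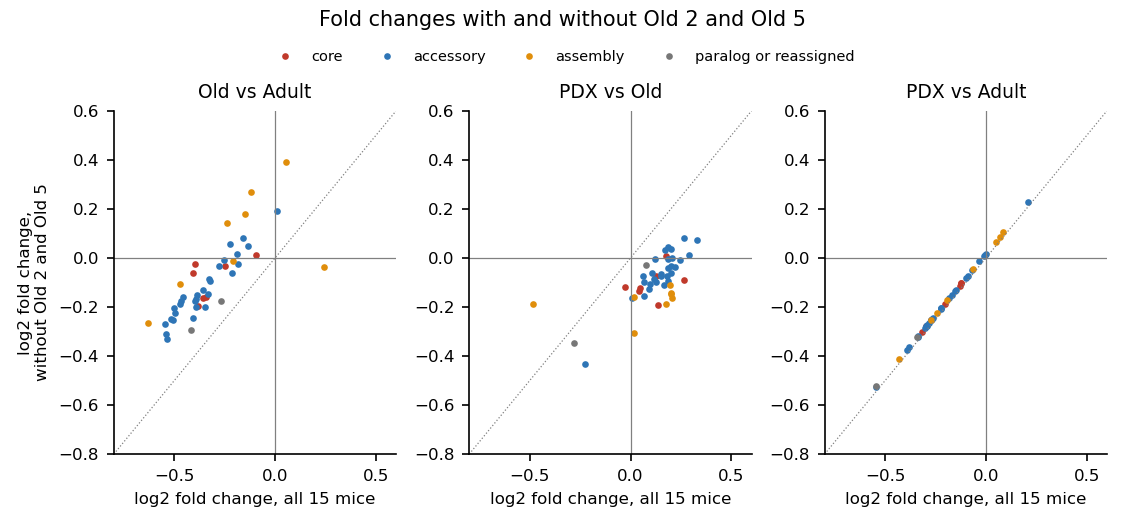
Log2 fold change without Old 2 and Old 5 (vertical axes) against the value from all 15 mice (horizontal axes) for the 46 members in the 3 comparisons, coloured by class, with a dotted line of equality. The median moved from -0.35 to -0.14 between Old and Adult and from 0.16 to -0.09 between PDX and Old, whereas between PDX and Adult it was -0.22 and -0.21.

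PDX was also compared with Adult, a contrast in which age and treatment differ together and cannot be told apart, and which shares its Adult mice with the first comparison. In the fit of all 15 mice 0 members were called at an adjusted p under 0.05, where 0.898% of all genes were called lower and 1.76% higher, and 5 members were lower at an unadjusted p under 0.05, against 9.41%. Mean levels were lower in PDX for 42 of 46 members (median log2 fold change -0.22, all genes -0.01). In 21 members every PDX mouse lay below every Adult mouse, against 9.34% of all genes, and in 0 members every PDX mouse lay above, against 10.5%. These were 17 accessory subunits, 9 of them among the 10 of the distal membrane arm, the core subunits Ndufs1, Ndufs3 and Ndufv1, and Ndufa4, and they included no assembly factor. A fit of the PDX and Adult mice alone, in which the Old mice do not enter the estimate of the spread, called 21 members lower, against 13.5% of all genes, and 1, Ndufa8, higher, against 16.1%. Without Old 2 and Old 5, 20 members were called lower, against 10.2%.

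Among single members, Ndufb4, a subunit of the distal membrane arm, had the lowest value between PDX and Adult. Its levels were 5.82, 6.76, 7.43, 6.40 and 6.28 CPM in the Adult mice, 4.46, 3.37, 4.35, 5.18 and 4.99 CPM in the PDX mice and 7.01, 3.66, 6.33, 4.90 and 4.26 CPM in the Old mice. All PDX mice lay below all Adult mice, and Old 1 and Old 3 lay within the Adult range. The log2 fold change was -0.55 (SE 0.19, edgeR adjusted p = 0.122), and the adjusted p was 0.0104 in the fit of both groups alone. Ndufa4, now assigned to complex IV, had 217, 232, 229, 208 and 209 CPM in the Adult mice, 189, 120, 167, 177 and 168 CPM in the Old mice and 176, 159, 178, 167 and 185 CPM in the PDX mice, with no overlap of either old group with Adult. Its log2 fold change was -0.42 between Old and Adult (SE 0.12, edgeR adjusted p = 0.0551) and -0.34 between PDX and Adult (SE 0.12, edgeR adjusted p = 0.140). Ndufa6, a subunit of the matrix arm, had log2 fold changes of -0.39 and -0.38 in these comparisons (SE 0.14 each, edgeR adjusted p = 0.0871 and 0.140). Ndufa4l2 had a mean log2 difference of -0.55 between PDX and Adult (SE 0.27, edgeR adjusted p = 0.268), but its groups overlapped, at 0.682 to 1.17 CPM in PDX and 0.832 to 1.61 CPM in Adult.

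Genes of related lists were set beside the members. Of 37 subunits of complexes II to V, 3 fell between Old and Adult (edgeR, adjusted p under 0.05), against 2.07% of all genes. None rose, against 4.71% of all genes. Those that fell were Sdhb and Sdha of complex II (-0.67, edgeR adjusted p = 0.0349, and -0.70, edgeR adjusted p = 0.0444) and Cox6c of complex IV (-0.40, edgeR adjusted p = 0.0438). The median of the 37 was -0.38 between Old and Adult, 0.12 between PDX and Old and -0.27 between PDX and Adult. Of 13 further assembly factors of complex I that do not carry an Nduf name, 1 fell between Old and Adult, against 2.07% of all genes. It was Dmac2, a factor of the distal membrane arm (-0.71, SE 0.18, edgeR adjusted p = 0.0337), and the other 12 were not called. Foxred1 and Acad9 had mean log2 fold changes of 0.09 and 0.01 (edgeR adjusted p = 0.768 and 0.986). Of 13 genes of iron-sulfur cluster synthesis, all had a lower mean in Old than in Adult, against 43.2% of all genes. Of these 13, 0 were called in either comparison with Adult. Of 9 regulators of mitochondrial genes, 0 were called in the 3 comparisons. Among all genes, 2.07% were called lower and 4.71% higher between Old and Adult. Between PDX and Adult the shares were 0.898% and 1.76%, and between PDX and Old 0 genes were called. Tfam, which maintains mitochondrial DNA, had log2 fold changes of -0.34 in both Old and PDX against Adult (SE 0.12 each, edgeR adjusted p = 0.0812 and 0.121). Pprc1, a coactivator, had 0.87 between Old and Adult (SE 0.37, edgeR adjusted p = 0.139). Its levels ran from 8.56 to 61.1 CPM in Old, on both sides of the Adult range of 13.1 to 15.6 CPM.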

How the data were processed

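Liver mRNA of 15 mice was sequenced. The authors aligned read pairs with STAR (version 2.6.0c) to mm10 and deposited raw counts of uniquely aligned pairs per non-mitochondrial gene (featureCounts, Subread 1.6.2), and also deposited log2-scale values from the variance stabilizing transformation of DESeq2 (1.23.10). Of 55450 gene IDs, 55104 received a GENCODE M21 symbol, and 0 columns lacked a sample.

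Counts were filtered with filterByExpr (minimum count 10, total 15), scaled with TMM and fitted with the quasi-likelihood test of edgeR 4.0.16 (R 4.3.3) with 1 coefficient per group and no covariate. P-values were adjusted over all 15808 genes. CPM per kb used the longest principal transcript. Alternatives were DESeq2 1.42.0, limma 3.58.1 on the log2 values, other scalings and filters, fits of the groups compared, a replicate block, and fits without mice. The test was checked on simulated data, in which 200 of 15808 genes differed between Old and Adult by a log2 size of 1. It recovered 117 of these 200, and 4 of its 121 calls were false. Smaller differences were not simulated. Python 3.11.15, numpy 2.4.6 and pandas 2.3.3 were used for summaries.

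Named members were all core subunits, members called in a comparison, the highest and lowest fold change of each class in each comparison, and the 3 highest and lowest levels per kb. Others were named after their values were seen, and 1 member is not reported here. The members and lists were chosen with earlier results of these data known. Promoter windows on chromosome 18 were left out. The marker sum without Alb was added after seeing the data. The mice of a group were separate animals with 1 library each, and no batch was given per mouse.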

Additional observations from a re-analysis of the deposited data

Results flagged for a closer look

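In 7 of 138 groups of 5 mice (46 members in 3 groups), the highest or lowest mouse lay apart from the others by more than 0.71 of the group's range (the 95% limit of Dixon's test for 5 values), where chance gives about 1 in 20. Low values were those of Ndufaf1 in Adult 1 (24.9 CPM), Ndufa3 in Adult 4 (58.3 CPM), Ndufaf5 in PDX 1 (4.81 CPM) and Ndufc2 in PDX 5 (54.8 CPM). High values were those of Ndufa1 in PDX 1 (60.0 CPM), Ndufaf6 in PDX 5 (14.9 CPM) and Ndufs5 in PDX 5 (6.71 CPM). None lay in the Old group, whose range Old 2 and Old 5 widened together.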

How the results depend on the processing

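The count of members called between Old and Adult was 2 (2.07% of all genes lower), and it was 8 with DESeq2 (4.02%) and 4 with library totals (1.79%). It was 1 each with RLE factors (1.98%) and with a filter of at least 1 CPM in 5 mice (2.02%). With upper quartile factors (1.54%), without a low-count filter (0.529%) and with limma (2.05%) it was 0. The fit of both groups alone (0.146%) and that without Old 2 and Old 5 together (2.26%) also gave 0. Leaving out 1 mouse at a time gave 0 to 13 calls. There were 0 without any 1 Adult mouse (0.299% to 0.404% of all genes lower), any 1 PDX mouse (1.27% to 1.75%) or Old 2 (0.945%). There were 13 without Old 1 (2.21%), 6 without Old 3 (4.99%), 5 without Old 4 (2.48%) and 4 without Old 5 (4.54%). Between PDX and Adult the count was 0 (0.898% of all genes lower). It was 22 in the fit of both groups alone (13.5% lower, 16.1% higher) and 20 without Old 2 and Old 5 (10.2% lower). When 1 mouse was left out it was 0 to 3, where 0.267% to 5.53% of all genes were lower (3 without Old 2, against 3.29%). Between PDX and Old it was 0 under every alternative run. The cause of these shifts was not tested. The median log2 fold change kept its sign under every alternative except that between PDX and Old without Old 2 and Old 5 (-0.09). Leaving out 1 mouse gave medians of -0.43 to -0.25 between Old and Adult, 0.06 to 0.25 between PDX and Old and -0.25 to -0.20 between PDX and Adult. Scaling by library totals, added after seeing the data, gave medians by mouse of -0.14, -0.37, -0.20, -0.23 and -0.60 in Old 1 to 5.

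The labels do not say whether the replicate numbers pair the mice, and 5 pairs per comparison cannot decide it. Same-numbered mice of Old and Adult had a mean correlation of deviations of -0.168 (other pairs 0.0435), and 0 of 5 pairs exceeded 0.1. For PDX and Old the mean was 0.092 (other pairs -0.0225), with 3 of 5 pairs above 0.1. For PDX and Adult it was 0.031 (other pairs -0.0078), with 1 of 5. With the replicate block 0 members were called in each comparison, with medians of -0.37 (Old and Adult), 0.18 (PDX and Old) and -0.22 (PDX and Adult). Of all genes, 0.43% were then called lower and 1.07% higher between Old and Adult. Between PDX and Adult the shares were 0.626% and 1.37%, and between PDX and Old 0 genes were called. Depth limited the lowest member, Ndufa4l2, at 0.613 to 1.61 CPM over the 15 mice.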
